A study of Homo sapiens with 6 samples.

Results

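The genes described here are 44 genes of the endoplasmic reticulum (ER): its chaperones, the sensors of the unfolded protein response, the enzymes of ER-associated degradation (ERAD) and the channel through which secreted proteins enter. They were chosen by name, from a list of ER folding, secretory and ERAD genes, and all 44 were found among the 58735 rows of the gene table. RNA was measured in wild-type PANC-1 cells, an established line of human pancreatic ductal adenocarcinoma. The cells received conditioned medium (CM) from macrophages grown together with other PANC-1 cells, which carried either an empty vector (CM-Vector) or overexpressed MLKL, the protein that ruptures the plasma membrane in necroptosis (CM-MLKL). The sequenced cells of both groups are therefore wild type and differ by the medium, and no group without medium from a co-culture was analysed here. There were 3 libraries per group, from 3 independent experiments per the study's methods, which describe the macrophages of its co-cultures as derived from THP-1 monocytic leukaemia cells. The question is whether medium from MLKL-overexpressing co-cultures changed the ER folding genes of the cells that received it.

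Proteins that enter the secretory pathway fold in the ER lumen with the help of chaperones, lectins and enzymes that form disulphide bonds. When unfolded proteins build up, 3 membrane sensors respond. IRE1 (the product of ERN1) splices XBP1 mRNA, ATF6 is cut to release a transcription factor, and PERK (the product of EIF2AK3) slows translation and favours that of ATF4. The transcription factors made by the first pair of routes bind ER stress elements in promoters and raise chaperone and ERAD genes. Acinar cells of the pancreas carry a large secretory load, for which XBP1 is known to matter in mice. The sensors are switched on at the protein level and XBP1 by splicing, and counts per gene show neither.

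The promoters were searched for the ER stress element (ERSE), which is CCAAT and CCACG separated by 9 bases. The search also covered its second form (ERSE-II), which is ATTGG and CCACG separated by 1 base. Promoter windows came from RefSeq on GRCh38.p14 and ran from 250 bases before to 50 bases after an annotated start, read on both strands. Windows were found for 41 of the 44 genes (not for DERL1, DERL3 and PDIA3). ERSE was present in 7 of the 41 genes (17.1%), against 25 of all 27305 genes with a window (0.0916%). ERSE-II was present in 3 of the 41 (7.32%), against 19 of all genes (0.0696%). The core of another element, UPRE (TGACGTGG), was found in 6 of the 41 (14.6%) and in 253 of all genes (0.927%). In HYOU1 a UPRE core overlaps one of its ERSE-II copies. ERSE or ERSE-II was present in 10 of the 41 (24.4%), against 44 of all genes (0.161%), and 31 of the 41 had neither. These elements are known for raising chaperone and ERAD genes, so their higher share here is a description and carries no test. A match describes the letters only, and binding was not measured. The stretches below belong to some of the 10 genes with ERSE or ERSE-II. They are written 5′ to 3′ in the direction in which the element reads. The 2 parts of the element are in capitals, with 10 bases on either side.
HSPA5 (ERSE, chr9:125241381-125241419, minus strand): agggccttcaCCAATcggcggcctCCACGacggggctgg
CALR (ERSE, chr19:12938374-12938412, minus strand): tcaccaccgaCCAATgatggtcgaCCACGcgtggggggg
HSP90B1 (ERSE, chr12:103930206-103930244, plus strand): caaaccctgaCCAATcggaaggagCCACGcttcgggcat
XBP1 (ERSE, chr22:28800593-28800631, minus strand): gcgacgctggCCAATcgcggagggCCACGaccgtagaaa
HERPUD1 (ERSE-II, chr16:56932015-56932045, plus strand): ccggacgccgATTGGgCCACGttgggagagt
SDF2L1 (ERSE-II, chr22:21642104-21642134, minus strand): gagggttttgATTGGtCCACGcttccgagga

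These elements lie 66 to 48 bases before the annotated start of HSPA5, 225 to 207 before that of CALR, and 194 to 176 before that of HSP90B1. The distances are 52 to 34 bases for XBP1, 117 to 107 for HERPUD1 and 188 to 178 for SDF2L1. HSP90B1 and HYOU1 each hold a second copy. The other genes with an element are CANX, CRELD2, HYOU1 and PDIA6.

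Library totals ranged from 15838403 to 17885429 counts. Levels are given as CPM (counts scaled to a common library size) after scaling by the trimmed mean of M values (TMM), and differences as log2 fold changes of CM-MLKL against CM-Vector with their standard error (SE). CM-Vector replicate 1 stood apart: its TMM factor was 1.156, against 0.926 to 1.026 in the other 5 libraries, and its log2 levels correlated with those of the other CM-Vector libraries at 0.922 and 0.923, against 0.988 between those. Values of many genes are given both with and without it. Of 12 macrophage markers, 2 (CD14 and ITGAM) passed the filter on low counts, PTPRC and MRC1 were at 0 in every library, and the markers summed to 5.48 to 10 CPM of library totals in CM-Vector and 4.2 to 5.11 in CM-MLKL. Of 8 ductal epithelial markers 7 were tested and CDH1 was not. KRT8, a keratin, was the most abundant of them, at 3148, 3810 and 3190 CPM in CM-Vector and 2055, 2384 and 1820 CPM in CM-MLKL. The 8 ductal markers summed to 4647 to 6029 CPM of library totals in CM-Vector and 3036 to 3836 in CM-MLKL. Of the 7 ductal markers tested, 0 had a log2 fold change above 0 (median -0.70, and -0.78 without CM-Vector replicate 1). Of the 2 macrophage markers tested, 0 did (median -1.13, and -0.73 without that library). Every CM-MLKL library lay below every CM-Vector library for 4 of the 7 and for 2 of the 2, where 5.5% of all genes tested did so. No marker of either list passed the edgeR threshold with all libraries, and without CM-Vector replicate 1 only ELF3 of these markers was called lower (adjusted p = 0.00681, edgeR). The part of these levels in the results below was not tested.

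No ER gene changed past the threshold between the media. The libraries are bulk RNA of a culture, so a change in every cell and a change in some of them cannot be told apart. Of the 44 genes, 43 had enough counts to be tested, and 0 were called higher or lower by the edgeR quasi-likelihood test at an adjusted p under 0.05, where 0.513% of all 14046 genes tested were called. The DESeq2 test also called 0. HERPUD1 was the one gene of the 43 with an unadjusted p under 0.05 (edgeR). Among 43 genes such a value can arise without any difference, and the share of all genes was not counted. The remaining gene, DERL3, which codes for a derlin of ERAD, had 2, 10 and 11 counts in the CM-Vector libraries and 8, 6 and 8 counts in the CM-MLKL libraries. Without CM-Vector replicate 1, 0 of the 43 were called, where 2.2% of 14303 genes were called. The smallest adjusted p of any of these genes in edgeR, DESeq2 or limma fits was 0.136, for DNAJC10 without that library.

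The fitted differences were small and mostly above 0. The log2 fold change was above 0 for 37 of 43 genes (86%), against 44.5% of all genes tested, with a median of 0.17 against -0.0434. Without CM-Vector replicate 1 it was above 0 for 38 of 43 (88.4%), against 54.9% of all genes, with a median of 0.21 against 0.0512. Genes of a pathway share their regulation and the state of each library, so these counts are a description of 6 libraries and carry no test. The values ran from -0.13 for CRELD2 to 0.71 for HERPUD1, with standard errors of 0.212 to 0.446. The 95% interval of 42 genes included 0, that of 32 genes lay within a 2-fold change either way, that of 10 genes reached a 2-fold increase and that of 1 gene (SEC62, -1.02 to 0.95) a 2-fold decrease. A change of that size in those genes is thus within the error of 3 libraries per group.

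**Figure D1:**
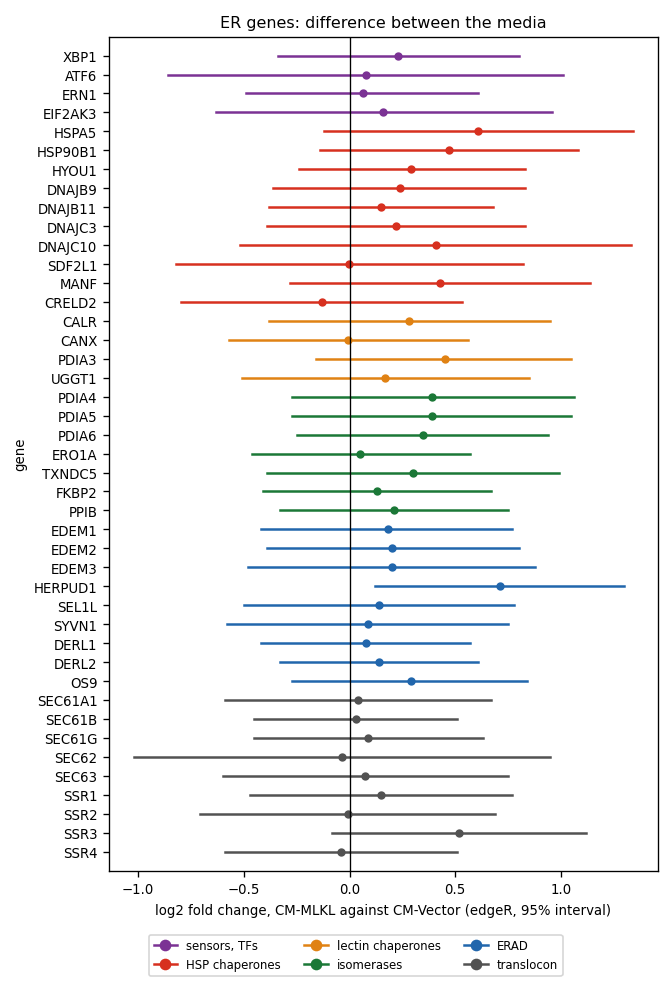
Log2 fold change of CM-MLKL against CM-Vector (x axis) for each of the 43 ER genes tested (y axis), coloured by role. Points are edgeR estimates from 3 libraries per group and lines their 95% intervals. The intervals are not adjusted for the number of genes. That of HERPUD1 is the only one that does not reach 0, and 37 of the 43 points lie above 0.

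Every CM-MLKL library lay above every CM-Vector library for 4 genes (HSPA5, PDIA3, HERPUD1 and DERL2), or 9.3% of the 43, where 6.43% of all genes tested did so. No ER gene had every CM-MLKL library below every CM-Vector library, where 5.5% of all genes did. With a library left out, fewer values have to separate. Apart from rescaling and filtering, either count can then only stay or rise, so only its size is described. The first count was 19 without CM-Vector replicate 1 (17.5% of all genes), 12 without CM-MLKL replicate 2 (13.6% of all genes) and 9 without CM-Vector replicate 3 (9.04% of all genes). The second count was 3 without CM-Vector replicate 1 (16.2% of all genes). With library totals in place of TMM scaling the first count was 8 (6.13% of all genes).

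The central chaperone HSPA5 (BiP, an HSP70 that binds unfolded chains and holds the sensors inactive) was the most abundant of the 10 HSP70, HSP90 and HSP110 chaperones and their partners. Its gene lies at chr9:125234853-125241330 on the minus strand (GRCh38, GENCODE 29). It measured 510, 1142 and 1265 CPM in CM-Vector replicates 1, 2 and 3 and 1474, 1395 and 1582 CPM in the CM-MLKL libraries. The groups did not overlap, and CM-Vector replicate 1 lay far below all others. The means were 972 ± 405 and 1484 ± 94 CPM (SD, n = 3 each). Its log2 fold change was 0.61 (SE 0.328, 95% interval -0.12 to 1.34) and did not pass the test (adjusted p = 0.933, edgeR). It was 0.33 without CM-Vector replicate 1 (adjusted p = 0.448, edgeR).

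HSP90B1 (GRP94, the HSP90 of the ER) measured 179, 231 and 282 CPM in CM-Vector and 269, 272 and 419 CPM in CM-MLKL. CM-MLKL replicate 3 was above the rest, and the other libraries of the groups overlapped. Its difference on the log2 scale was 0.47 (SE 0.276, adjusted p = 0.982, edgeR), and 0.23 without that library. HYOU1, the HSP110 that exchanges nucleotide on BiP, had a log2 fold change of 0.29 (SE 0.243). MANF, which is secreted under ER stress, had one of 0.43 (SE 0.321), and 0.17 without CM-Vector replicate 1.

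SDF2L1, a lumenal partner of the BiP co-chaperones, measured 74.5, 217 and 203 CPM in CM-Vector and 169, 195 and 131 CPM in CM-MLKL. The lowest and the highest library were both of the CM-Vector group. Its log2 fold change was -0.00141 (SE 0.37), and -0.32 without CM-Vector replicate 1. CRELD2 was at -0.13 (SE 0.301), and at -0.35 without it. The J-domain partners DNAJB9, DNAJB11 and DNAJC3 were at 0.24, 0.15 and 0.22 in log2 fold change, and at 0.10, 0.0577 and 0.47 without that library.

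DNAJC10, a J-domain protein that reduces disulphide bonds of ERAD substrates, had another pattern and was chosen after its values were seen. It measured 98.6, 41 and 34.5 CPM in CM-Vector and 73, 49.9 and 108 CPM in CM-MLKL. CM-Vector replicate 1 was here among the highest libraries, with the other CM-Vector libraries below all of CM-MLKL. DNAJC10 had a log2 fold change of 0.41 (SE 0.418) and without that library of 1.05, which also missed the threshold (adjusted p = 0.136, edgeR). The value was 0.085 without CM-MLKL replicate 3, 0.14 without CM-Vector replicate 3, 0.22 without CM-Vector replicate 2 and 0.64 without CM-MLKL replicate 2. Across the 10 chaperones and partners, 8 log2 fold changes were above 0 and the median was 0.27, or 0.19 without CM-Vector replicate 1.

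**Figure D2:**
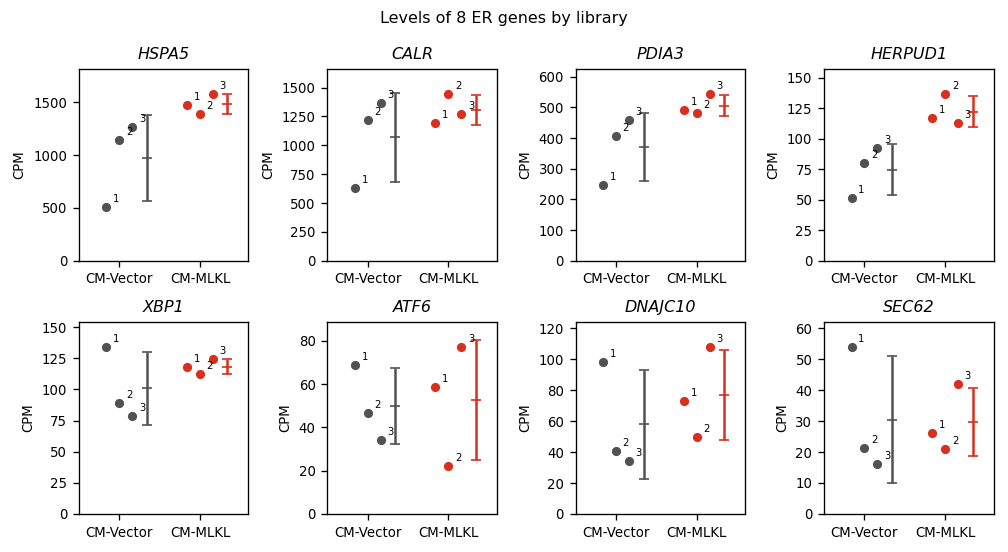
Level of 8 ER genes in each library, in TMM-scaled CPM on axes that start at 0. Points are libraries numbered by replicate, and the bar beside each group is its mean ± SD (n = 3). HSPA5, PDIA3 and HERPUD1 do not overlap between groups, and CM-Vector replicate 1 is lowest for HSPA5, CALR, PDIA3 and HERPUD1 but highest for XBP1 and SEC62.

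The lectin chaperones hold newly glycosylated proteins until they are folded. CALR (calreticulin) had the highest level per length of all the genes, at 437 CPM per kilobase of exons, ahead of HSPA5 at 314 and SEC61G at 194. It measured 633, 1215 and 1363 CPM in CM-Vector and 1196, 1446 and 1269 CPM in CM-MLKL, so the groups overlapped except for CM-Vector replicate 1. Its log2 fold change was 0.28 (SE 0.302) with all libraries and 0.045 without that one.

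CANX (calnexin, the membrane-bound relative of calreticulin, chosen after its values were seen) measured 560, 356 and 402 CPM in CM-Vector and 464, 368 and 479 CPM in CM-MLKL. CM-Vector replicate 1 was the highest library for calnexin and the lowest for calreticulin. The log2 fold change of CANX was -0.00623 (SE 0.257), and its sign changed with the scaling. UGGT1, which puts a glucose back on misfolded glycoproteins, was at 0.17 (SE 0.308), and 0.58 without CM-Vector replicate 1.

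PDIA3 (ERp57), which joins disulphide bonds on proteins held by both lectins, measured 246, 408 and 459 CPM in CM-Vector and 491, 481 and 544 CPM in CM-MLKL. The groups did not overlap, and CM-Vector replicate 3 lay just under the lowest CM-MLKL library. On the log2 scale PDIA3 differed by 0.45 (SE 0.272, adjusted p = 0.999, edgeR), and 0.25 without CM-Vector replicate 1. A processed copy, PDIA3P1, held counts equal to 4.33% of those of PDIA3, and reads could be split between them.

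All 7 disulphide and prolyl isomerases had log2 fold changes above 0, from 0.0509 for ERO1A, the oxidase that recharges the disulphide isomerases, to 0.39 for PDIA4 and PDIA5. PDIA4 was the most abundant, at 156, 311 and 348 CPM in CM-Vector and 357, 368 and 346 CPM in CM-MLKL. PDIA5 measured 35.9, 70 and 77.7 CPM in CM-Vector and 77.1, 79.2 and 84.8 CPM in CM-MLKL. For both genes CM-Vector replicates 2 and 3 were close to the CM-MLKL libraries and replicate 1 was the lowest. The SE was 0.301 for PDIA4 and 0.298 for PDIA5, and without that library the log2 fold change of each was 0.15. The median of the 7 was 0.30 with all libraries and 0.15 without CM-Vector replicate 1.

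HERPUD1, a membrane protein that organises the ERAD complex, had the largest log2 fold change of the 43 genes. It lies at chr16:56932048-56944863 on the plus strand. It measured 51.5, 80 and 92.9 CPM in CM-Vector and 117, 137 and 113 CPM in CM-MLKL, without overlap. The means were 74.8 ± 21.1 and 122 ± 13.1 CPM (SD, n = 3 each). On the log2 scale the difference was 0.71 (SE 0.267, 95% interval 0.12 to 1.30), and the adjusted p over all genes was 0.596 (edgeR). The value without CM-Vector replicate 1 was 0.53 (adjusted p = 0.283, edgeR). Over all settings the log2 fold change of HERPUD1 lay between 0.53 and 0.89, and no setting gave it an adjusted p under 0.283.

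OS9, a lectin that hands glycoproteins to ERAD, was the most abundant ERAD gene, at 178, 270 and 286 CPM in CM-Vector and 281, 324 and 292 CPM in CM-MLKL (log2 fold change 0.29, SE 0.251, and 0.13 without CM-Vector replicate 1). DERL2, a derlin of the ERAD channel, was chosen after its values were seen. It measured 103, 102 and 97.8 CPM in CM-Vector and 114, 112 and 106 CPM in CM-MLKL. The groups did not overlap, yet the log2 fold change was 0.14 (SE 0.212). SYVN1 (HRD1, the ubiquitin ligase of the complex) and SEL1L (its partner) were at 0.0873 (SE 0.299) and 0.14 (SE 0.288), the latter at 0.50 without CM-Vector replicate 1. The mannosidase-like EDEM1, EDEM2 and EDEM3 were at 0.18, 0.20 and 0.20 in log2 fold change, but at 0.45, 0.0137 and 0.44 without CM-Vector replicate 1. All 9 ERAD genes tested were above 0, with a median of 0.18 with or without that library.

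The sensors and XBP1 differed less between the groups than between libraries of 1 group. XBP1 (chr22:28794555-28800597, minus strand) measured 134, 89.3 and 78.9 CPM in CM-Vector and 118, 112 and 124 CPM in CM-MLKL. The CM-MLKL libraries lay between CM-Vector replicate 1 and the other CM-Vector libraries. XBP1 had a log2 fold change of 0.23 (SE 0.257, 95% interval -0.34 to 0.80), and 0.52 without CM-Vector replicate 1 (adjusted p = 0.266, edgeR).

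ATF6 measured 68.9, 46.7 and 34.2 CPM in CM-Vector and 58.5, 22.3 and 77.1 CPM in CM-MLKL. Both its lowest and its highest library were of the CM-MLKL group, and the log2 fold change was 0.0764 (SE 0.422). ERN1 measured 29.5, 22.6 and 24.6 CPM in CM-Vector and 24.5, 28.3 and 27.2 CPM in CM-MLKL (log2 fold change 0.0615, SE 0.247). EIF2AK3 was the least abundant of the 4, at 9.25, 5.79 and 4.36 CPM in CM-Vector and 8.32, 6.19 and 7.28 CPM in CM-MLKL (log2 fold change 0.16, SE 0.361). Without CM-Vector replicate 1 the log2 fold changes were 0.41 for ATF6, 0.21 for ERN1 and 0.55 for EIF2AK3. The median of the 4 was 0.12, and 0.46 without that library.

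The translocon carries new chains across the ER membrane through the SEC61 channel, with SEC62 and SEC63 as helpers and the SSR (TRAP) complex beside it. SSR3, a subunit of TRAP, had the smallest unadjusted p of the 9 genes, 0.0842 (edgeR). It measured 130, 126 and 114 CPM in CM-Vector and 175, 121 and 232 CPM in CM-MLKL. CM-MLKL replicates 1 and 3 were above all CM-Vector libraries and replicate 2 among them. For SSR3 the difference on the log2 scale was 0.52 (SE 0.271, adjusted p = 0.921, edgeR), and 0.27 without CM-MLKL replicate 3. Its partners SSR1, SSR2 and SSR4 were at 0.15 (SE 0.28), -0.00842 (SE 0.315) and -0.0396 (SE 0.25), and without CM-Vector replicate 1 at 0.38, -0.27 and -0.17.

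SSR4 was the most abundant of the 9, at 382, 596 and 509 CPM in CM-Vector and 478, 541 and 427 CPM in CM-MLKL. The channel subunits SEC61A1, SEC61B and SEC61G were at 0.0424, 0.0327 and 0.0865 in log2 fold change, and without CM-Vector replicate 1 at 0.41, 9.91e-05 and -0.00376. SEC62, chosen after its values were seen, measured 53.9, 21.2 and 16.2 CPM in CM-Vector and 26.1, 21 and 42.1 CPM in CM-MLKL. CM-Vector replicate 1 was its highest library. The log2 fold change of SEC62 was -0.0353 (SE 0.446) and turned to 0.69 without that library (adjusted p = 0.331, edgeR). For SEC63 the log2 fold change was 0.071 (SE 0.305), and 0.47 without CM-Vector replicate 1. The median of the 9 translocon genes was 0.0424, and 0.38 without that library.

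CM-Vector replicate 1 split the ER genes in opposite ways. It was the lowest of the 6 libraries for 23 of the 43 genes (53.5%), against 27.7% of all genes tested, and the highest for 11 (25.6%), against 32.4%. The 23 included HSPA5, HSP90B1, CALR, PDIA3, PDIA4, PDIA5, PDIA6, HYOU1, MANF, SDF2L1 and HERPUD1. They also included CRELD2, DNAJB9, DNAJB11, PPIB, FKBP2, EDEM2, OS9, DERL1, SSR2, SSR4, SEC61B and SEC61G. The 11 were ERN1, EIF2AK3, XBP1, CANX, UGGT1, DNAJC3, EDEM1, SEL1L, SEC61A1, SEC62 and SEC63. No CM-MLKL library was lowest in as many genes: CM-MLKL replicate 1 was lowest for 0, replicate 2 for 3 and replicate 3 for 1.

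The genes for which CM-Vector replicate 1 was lowest had a median GC content of 50.8% and a median transcript length of 2682 bases (longest transcript, GENCODE 29). Those for which it was highest had medians of 41.6% and 6146 bases. Over the 43 genes, the log2 ratio of CM-Vector replicate 1 to the mean of replicates 2 and 3 had a Pearson r of -0.53 with GC content and 0.65 with log2 transcript length. Over 14017 genes of the table the values were -0.41 and 0.34. These are correlations across genes of the same 3 libraries, given as descriptions. The part of GC content and length in the levels of this library was not tested. A fit with trends on both as offsets, added after the data were seen, gave log2 fold changes of 0.57 for HSPA5, 0.72 for HERPUD1 and 0.63 for DNAJC10, none past the threshold. With the offsets SDF2L1 went from -0.00141 to 0.25 and SEC61A1 from 0.0424 to -0.0305. In that fit 39 ER genes were above 0, with a median of 0.24.

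**Figure D3:**
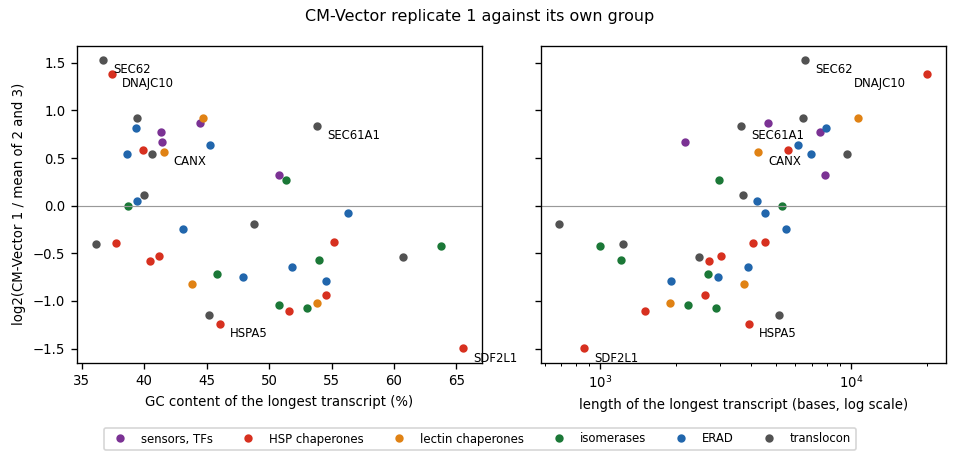
Log2 ratio of the level in CM-Vector replicate 1 to the mean of CM-Vector replicates 2 and 3 (y axis) for the 43 ER genes, against GC content in percent (left) and length in bases on a log axis (right) of the longest transcript. Points are genes coloured by role. SDF2L1 is lowest and SEC62 highest, and the ratio falls with GC content (r = -0.53) and grows with length (r = 0.65).

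The heat map by library shows the same split. In CM-Vector replicate 1 the median level relative to the geometric mean of the 6 libraries was 0.39 (log2) for the 4 sensors and transcription factors and -0.54 for the 10 chaperones and partners. In the other 5 libraries the median over all 43 genes lay between -0.0586 and 0.19, and in that library it was -0.20. The 43 genes summed to 5972 CPM in CM-Vector replicate 1, to 8249 and 8590 CPM in CM-Vector replicates 2 and 3, and to 8977, 9218 and 9316 CPM in CM-MLKL. The sum was thus higher in each CM-MLKL library than in each CM-Vector library, with the largest step between CM-Vector replicate 1 and the rest.

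**Figure D4:**
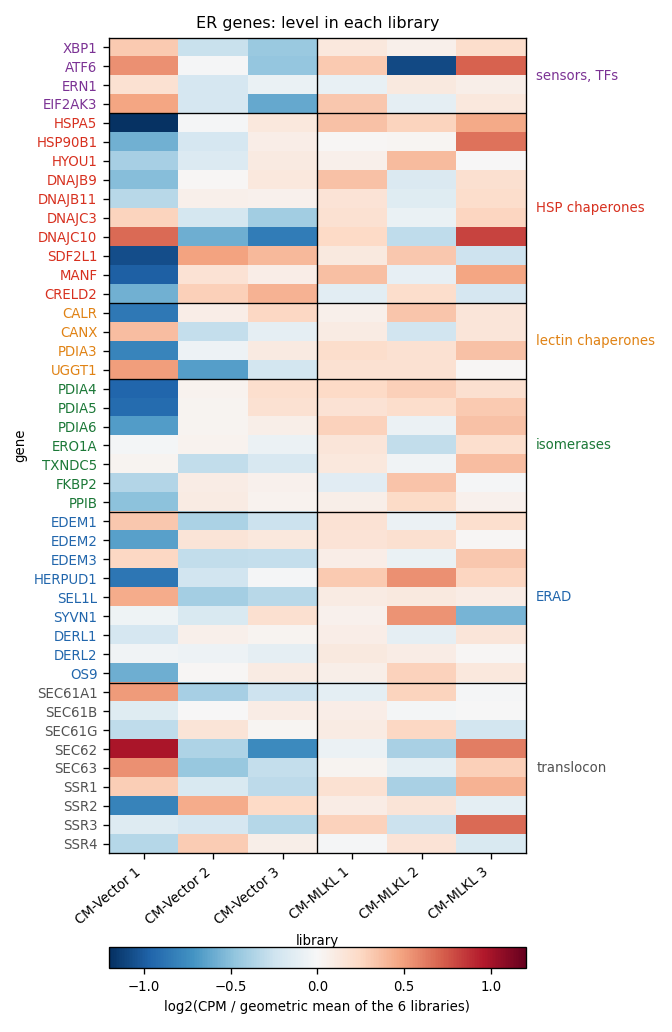
Level of each ER gene (rows, grouped by role) in each library (columns), as the log2 ratio of its CPM to the geometric mean of the 6 libraries. Red is above and blue below that mean. CM-Vector replicate 1 is blue for HSPA5, CALR and most isomerases and red for XBP1, SEC62 and UGGT1. Deep colours also occur elsewhere, as for ATF6 and DNAJC10 in CM-MLKL replicate 3.

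Since CM-Vector replicate 1 is 1 of 3 controls, genes low in it lose and genes high in it gain when it is left out, so the direction of each move is fixed and only its size is described. The log2 fold change became smaller for HSPA5 (0.61 to 0.33), CALR (0.28 to 0.045), PDIA4 (0.39 to 0.15) and SDF2L1 (-0.00141 to -0.32). It became larger for DNAJC10 (0.41 to 1.05), SEC62 (-0.0353 to 0.69), UGGT1 (0.17 to 0.58) and XBP1 (0.23 to 0.52). HERPUD1 went from 0.71 to 0.53 and SSR3 from 0.52 to 0.58.

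**Figure D5:**
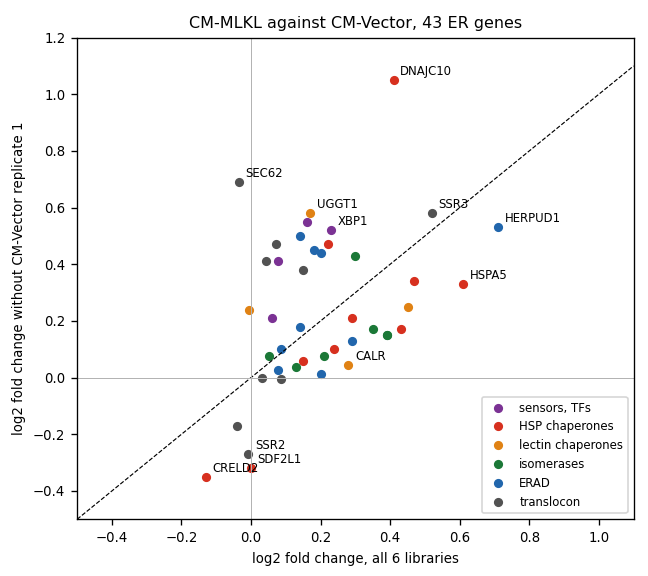
Log2 fold change of CM-MLKL against CM-Vector for the 43 ER genes with all 6 libraries (x axis) and without CM-Vector replicate 1 (y axis), coloured by role. The dashed line marks equal values. DNAJC10 and SEC62 lie above the line, SDF2L1 and CALR below it, and 38 of the 43 genes are above 0 on the y axis.

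The 10 genes with an ERSE or ERSE-II in their promoter window had a median log2 fold change of 0.29, with 7 above 0, and the 31 genes with a window and neither element had a median of 0.15, with 28 above 0. Without CM-Vector replicate 1 the medians were 0.22 and 0.18. That library was the lowest for 8 of the 10 and for 13 of the 31. The exceptions among the 10 were XBP1 and CANX, for which it was the highest. Of the genes printed above, HERPUD1 had the largest log2 fold change (0.71) and SDF2L1 the smallest (-0.00141), and both carry the second form of the element. Of the genes with an element that are not printed, CRELD2 (-0.13, the lowest of the 43 genes) and CANX (-0.00623) lay below SDF2L1, and both carry ERSE.

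Other genes around the ER were read from 6 lists. In the PERK and ATF4 arm, 0 of 10 genes were called and the median log2 fold change was -0.22, and -0.016 without CM-Vector replicate 1. Of the 10, 4 were above 0. Every CM-MLKL library lay above every CM-Vector library for 2 of the 10 (6.43% of all genes) and below for 2 (5.5% of all genes). ATF4, the factor whose translation PERK favours, measured 546, 571 and 548 CPM in CM-Vector and 388, 382 and 391 CPM in CM-MLKL. The groups were far apart relative to their spread, but the log2 fold change of -0.52 (SE 0.214) did not pass over all genes (adjusted p = 0.701, edgeR).

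ATF3, NUPR1 and CHAC1, stress-induced genes downstream of ATF4, were chosen after their values were seen. ATF3 measured 206, 113 and 100 CPM in CM-Vector and 244, 220 and 263 CPM in CM-MLKL, a difference of 0.79 on the log2 scale (SE 0.298) that did not pass (adjusted p = 0.591, edgeR). This value was 1.21 without CM-Vector replicate 1 and passed the threshold (adjusted p = 0.0166, edgeR, over all settings 0.0166 to 1). NUPR1 measured 223, 160 and 152 CPM in CM-Vector and 95.2, 110 and 88.5 CPM in CM-MLKL, a difference of -0.86 on the log2 scale (SE 0.245) that did not pass either (adjusted p = 0.291, edgeR). CHAC1, which degrades glutathione, measured 140, 27.2 and 20.9 CPM in CM-Vector and 25.6, 35.1 and 18.3 CPM in CM-MLKL. Its value rested on CM-Vector replicate 1: the difference was -1.26 on the log2 scale (SE 0.624, adjusted p = 0.88, edgeR) and 0.16 without that library. CHAC1 passed the threshold only without a filter on low counts (adjusted p = 0.013, edgeR, over all settings 0.013 to 1). The rest of the list was TRIB3 (0.11), ASNS (0.58), SESN2 (0.34), DDIT3 (-0.32), PPP1R15A (-0.19) and CEBPB (-0.24). Without CM-Vector replicate 1 these were at 0.58, 0.37, 1.03, -0.46, -0.32 and -0.19. Genes of this arm thus lay on both sides of 0.

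The one gene called on the 6 lists with all libraries and the main settings was AGR2, a disulphide isomerase of the ER that mice need to make intestinal mucin. It fell from 286, 243 and 209 CPM in CM-Vector to 62.3, 31.6 and 59.5 CPM in CM-MLKL, with no overlap. The difference on the log2 scale was -2.27 (SE 0.306, adjusted p = 0.00825, edgeR), and it passed in every setting (adjusted p from 3.04e-10 to 0.0434). It was 1 of 20 further ER oxidoreductases and folding factors tested, whose median was 0.0426.

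The other 4 lists held no called gene. Their medians were 0.0401 for 12 further sensors, proteases and membrane-bound factors, and 0.0867 for 24 genes of the oligosaccharyltransferase, signal peptidase and signal recognition particle. They were 0.21 for 20 genes of ER exit and ER-Golgi retrieval and -0.0185 for 21 further ERAD genes, whose median turned to 0.10 without CM-Vector replicate 1. The most abundant members were BAK1, which permeabilises mitochondria (0.36, SE 0.285, and 0.18 without CM-Vector replicate 1), and DDOST, a subunit of the oligosaccharyltransferase (0.0834, SE 0.295). The others were KDELR2, the receptor that returns chaperones to the ER (0.27, SE 0.231), and VCP, the ATPase that pulls ERAD substrates out of the membrane (0.13, SE 0.217). The value of DDOST changed sign to -0.15 without CM-Vector replicate 1.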

How the data were processed

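The authors deposited 1 table of unnormalised counts, whole numbers of reads for each gene. Per the study's methods, poly(A) RNA was prepared with a NEBNext Ultra kit, Illumina NovaSeq reads passed fastp, and StringTie assembled the mapped reads by reference. For the aligner, genome build and counting tool, names were not given in the sources used here. Strand is not stated in the methods, and a kit of that name without a directional step does not mark it, so reads from stretches that 27 of the 44 genes share with an antisense neighbour could belong to either gene. Names were matched to GENCODE 29, and 27 rows with names turned into dates (0.155% of counts) stayed in the totals.

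In R 4.3.3, filterByExpr in edgeR 4.0.16 (minimum count 10, minimum total 15) kept 14046 genes. The media were compared by quasi-likelihood F-tests in edgeR on TMM-scaled libraries, two-sided, with Benjamini-Hochberg adjustment over all genes and a threshold of 0.05, after tests on simulated data. The p-values set the difference between the groups against the spread between 3 libraries per group. The spread of each gene was estimated with help from the other genes. The limit for a gene without reads is 3 counts (0.168 to 0.189 CPM), which covers counting error only. Alternatives were DESeq2 1.42.0 size factors and test, library totals, limma 3.58.1 (voom), no filter, a floor of 5 CPM in 3 libraries, omission of each library in turn, a replicate block, and GC and length offsets.

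The genes and lists were chosen with earlier results of these data known. Named genes were, per role, the members with the smallest unadjusted p (at least 2), the most abundant one, HSPA5 and the sensors with XBP1, and, per other list, called genes or the most abundant one. Others were named to complete a complex or as exceptions.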

Additional observations from a re-analysis of the deposited data

How the results depend on the processing

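No ER gene was called in any of the 14 other settings. The number of ER genes above 0 was 35 to 40 and their median log2 fold change 0.12 to 0.24 across them. The number of ER genes with every CM-MLKL library above every CM-Vector library was 8 with library totals, where 861 of all 14046 genes did so. With each library left out, it was lowest without CM-Vector replicate 2, at 5, where 1179 of 14410 genes did so. It was highest without CM-Vector replicate 1, at 19, where 2496 of 14303 genes did so. Alternative values were counted for 30 of the genes named here. Of these values, 391 kept direction and call, 26 reversed in 9 genes, and 2 passed where the main value did not. The 2 were ATF3 (1.21 without CM-Vector replicate 1) and CHAC1 (-1.23 without a filter). These reversals were of values less than 1 SE from 0, except for CHAC1, and the cause was not tested. ER genes outside the 30 also changed sign between settings. They were SDF2L1 (-0.32 to 0.26), SSR2 (-0.27 to 0.25), SYVN1 (-0.21 to 0.33), SEC61A1 (-0.11 to 0.41), SEC63 (-0.11 to 0.47), CRELD2 (-0.35 to 0.0552), UGGT1, ERO1A, FKBP2 and SEC61G. With each library left out, log2 fold changes ran from -0.0492 to 0.55 for EIF2AK3, -0.0283 to 0.38 for SSR1, -0.17 to 0.13 for SSR4, -0.30 to 0.44 for ATF6, -0.00951 to 0.21 for ERN1, -0.15 to 0.24 for DDOST, -0.37 to 0.69 for SEC62, -0.13 to 0.24 for CANX and -1.67 to 0.16 for CHAC1. ATF6 was at -0.037 in limma-voom and -0.049 with the replicate block. SEC62 was at 0.0944 in limma-voom, 0.095 with the block and 0.15 with GC and length offsets. CANX was at 0.00917 with DESeq2 size factors and in the DESeq2 test, 0.0115 in limma-voom, without a filter and with the block, and 0.0498 with the offsets. Deviations of same-numbered libraries from their group means correlated at 0.171, 0.168 and -0.305. With 3 libraries per group, these values cannot decide whether the replicate number pairs the libraries. With the number as a block, calls over all genes went from 57 higher and 15 lower to 112 and 43, and 0 ER genes were called, with a median of 0.22. Calls over all genes were 140 and 67 in DESeq2, 149 and 100 without a filter, and 116 and 36 with the offsets. Without CM-Vector replicate 1 they were 206 and 108. With 3 libraries per group, a 2-fold increase lay within the 95% interval of 10 ER genes and a 2-fold decrease within that of 1.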
